A study of Homo sapiens with 8 samples.

Results

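Interleukins and colony stimulating factors are secreted proteins by which cells signal to one another, and the genes described here are 9 such ligands and 1 receptor subunit in LM2 breast cancer cells. The 10 members are IL1A, IL1B, IL6, IL11, LIF, CSF1, CSF2, CSF3, IL1RAP and IL24, matched by symbol among 58688 genes with a read count in each sample. LM2 is a lung metastatic derivative of MDA-MB-231, a human triple negative breast cancer line. RNA was sequenced in 8 samples: 2 of cells given DMSO, 2 of cells given Ponatinib, a drug that blocks ABL kinases and several further tyrosine kinases, at 1 µmol/L for 6 h, and 1 each of cells carrying scrambled shRNA, ABL1 shRNA, ABL2 shRNA or ABL1/ABL2 shRNA. The shRNA (short hairpin RNA, which lowers the mRNA it targets) was delivered by lentivirus and the infected cells were selected with puromycin, so the shRNA samples are stable pools that differ from the DMSO and Ponatinib samples in more than the hairpin. Whether the repeats came from separate cultures is not given in the sources used here, so p-values measure the spread between these samples, which may be technical.

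IL-1α (IL1A) and IL-1β (IL1B) bind a shared receptor whose signaling chain is IL1RAP, and the signal runs through MYD88 and IRAK kinases to NF-kB and the MAP kinases. IL-6 (IL6), IL-11 (IL11) and LIF form one family that signals through the common chain gp130 (IL6ST) to JAK kinases and STAT3. M-CSF (CSF1), GM-CSF (CSF2) and G-CSF (CSF3) drive the production and activity of macrophages and granulocytes, and IL-24 (IL24) belongs to the IL-10 family and acts on receptors with an IL-20 receptor chain. Breast tumor cells can release these factors and recruit or activate myeloid and bone cells around them.

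On GRCh38, IL1A (chromosome 2, 112773925 to 112784493) and IL1B (chromosome 2, 112829751 to 112836816) are neighbors on the minus strand. IL6 lies on chromosome 7 from 22725884 to 22732002, IL11 on chromosome 19 from 55364382 to 55370463 and LIF on chromosome 22 from 30240453 to 30246759. CSF1 lies on chromosome 1 from 109910242 to 109930992, CSF2 on chromosome 5 from 132073789 to 132076170 and CSF3 on chromosome 17 from 40015361 to 40017813. IL1RAP lies on chromosome 3 from 190514051 to 190659750 and IL24 on chromosome 1 from 206897443 to 206904139.

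Promoter windows of 300 bases (250 before and 50 after the start of transcription) were taken from a table of RefSeq starts on GRCh38.p14, in which 7 members were matched. The windows of LIF, CSF1 and CSF3 were not analysed here. Shown are the windows of the 4 members that fell after Ponatinib treatment and held a searched motif, and that of IL6, which did not pass the test, 5′ to 3′ on the gene's own strand. Capitals mark the motif matches. Of the 2 windows listed for IL1A the first is shown. The windows lie at chr2:112784444-112784743 (IL1A), chr2:112836730-112837029 (IL1B), chr19:55370414-55370713 (IL11), chr5:132073539-132073838 (CSF2) and chr7:22726950-22727249 (IL6), those of IL1A, IL1B and IL11 on the minus strand and the others on the plus strand.
IL1A: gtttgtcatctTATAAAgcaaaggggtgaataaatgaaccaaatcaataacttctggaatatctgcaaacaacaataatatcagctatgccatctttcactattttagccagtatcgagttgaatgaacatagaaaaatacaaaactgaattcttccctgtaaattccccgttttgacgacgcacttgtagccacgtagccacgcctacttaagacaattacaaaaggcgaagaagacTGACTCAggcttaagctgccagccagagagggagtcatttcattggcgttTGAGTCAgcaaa
IL1B: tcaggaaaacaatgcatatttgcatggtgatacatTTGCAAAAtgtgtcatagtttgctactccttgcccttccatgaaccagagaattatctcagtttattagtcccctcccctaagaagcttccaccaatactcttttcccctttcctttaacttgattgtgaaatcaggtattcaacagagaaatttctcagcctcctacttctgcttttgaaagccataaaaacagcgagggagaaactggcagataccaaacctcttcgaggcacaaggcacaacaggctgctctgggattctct
IL11: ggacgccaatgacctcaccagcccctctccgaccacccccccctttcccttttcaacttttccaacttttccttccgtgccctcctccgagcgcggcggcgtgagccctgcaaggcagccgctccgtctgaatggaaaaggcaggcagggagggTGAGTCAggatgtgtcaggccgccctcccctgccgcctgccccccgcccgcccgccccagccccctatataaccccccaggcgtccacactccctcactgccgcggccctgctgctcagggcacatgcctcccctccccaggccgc
CSF2: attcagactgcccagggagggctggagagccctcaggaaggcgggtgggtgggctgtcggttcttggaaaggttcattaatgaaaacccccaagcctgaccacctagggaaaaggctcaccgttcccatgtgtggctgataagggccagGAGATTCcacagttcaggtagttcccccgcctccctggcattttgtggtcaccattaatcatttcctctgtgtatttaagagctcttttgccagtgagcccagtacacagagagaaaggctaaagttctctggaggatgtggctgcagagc
IL6: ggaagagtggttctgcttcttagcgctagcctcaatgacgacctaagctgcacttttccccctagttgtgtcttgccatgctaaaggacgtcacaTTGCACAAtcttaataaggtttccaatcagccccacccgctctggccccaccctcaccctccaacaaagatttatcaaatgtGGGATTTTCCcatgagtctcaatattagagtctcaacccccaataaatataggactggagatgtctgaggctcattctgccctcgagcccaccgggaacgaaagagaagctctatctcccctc
The motifs were searched on both strands. The AP-1 motif TGANTCA, read by JUN and FOS proteins, was in the windows of IL11 (96 bases before the start) and IL1A (12 bases before it, and again after it), and in 7.71% of the 35116 windows of all genes. The C/EBP motif TTGCNNAA was in those of IL1B and IL6 (10.5% of all windows). The CK-1 motif GAGATTC, described in colony stimulating factor promoters, was in that of CSF2 (2.86%). The NF-kB consensus was in that of IL6 (11.3%), while the CRE motif TGACGTCA was in none of the 7 (1.85%). TATAAA was in that of IL1A (11.5%), but 239 bases before the start. The second window listed for IL1A held no TATAAA, and its AP-1 matches lay 105 and 55 bases before its start. The 2 windows overlap, and these are the same 2 AP-1 sites as in the first. IL1RAP and IL24 held none of these letters, and a match describes the sequence without showing that a factor binds there.

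Total counts on genes ranged from 7568934 to 13010896, and 3 counts in the shallowest sample equal 0.396 CPM (read counts scaled to library size). Levels below are CPM normalized by the TMM method within the 4 DMSO and Ponatinib samples or within the 4 shRNA samples. Levels of the members were not compared between these sets, since the sets stand apart. In all 4 shRNA samples 68 genes had 0 counts but 100 or more in each of the other 4. Marker levels are listed for both sets as a description only. The LM2 markers VIM, CD44, EGFR and KRT18 were at 144 to 3145 CPM, and ESR1, PGR and CDH1 at 1.77 CPM or less. Myeloid and other blood cells also make these cytokines. The 7 leukocyte markers summed to 1.11 to 1.95 CPM with DMSO, 1.81 to 1.95 with Ponatinib and 3.60 to 9.21 in the shRNA samples. Of the 7, 5 stayed under 1 CPM in every sample, with PTPRC at no more than 3 counts and CD3E at no more than 1, while CD14 reached 7.15 CPM and LYZ 1.40. The 5 fibroblast and endothelial markers summed to 68.5 to 69.1 CPM with DMSO, 84.2 to 93.6 with Ponatinib and 138 to 439 in the shRNA samples, most of it COL1A1 (62.4 to 406 CPM). The part of these markers in the results was not tested.

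To determine how inhibition by Ponatinib changed these genes, the 2 Ponatinib and 2 DMSO samples were compared over 16031 genes with edgeR's quasi-likelihood test, in which a gene rose or fell when its Benjamini-Hochberg adjusted p was under 0.05. All 10 members were tested. Of these, 7 fell (IL1A, IL1B, IL11, LIF, CSF2, CSF3 and IL24), 1 rose (CSF1) and 2 did not pass (IL6 and IL1RAP). Among all genes tested 15.7% fell and 15.0% rose, 30.7% in all. The 7 that fell also met the cutoffs in the study's methods (over 2-fold, P under 0.05 without adjustment), as did 5.48% of all genes. The median log2 fold change was -1.75 over the members and -0.0047 over all genes. The members were chosen with earlier results of these data known. These shares and medians thus describe the members and do not test the group as a whole. The DMSO and Ponatinib samples did not overlap for 9 of the 10 members, as for 64.9% of all genes, and overlapped for IL6.

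**Figure D1:**
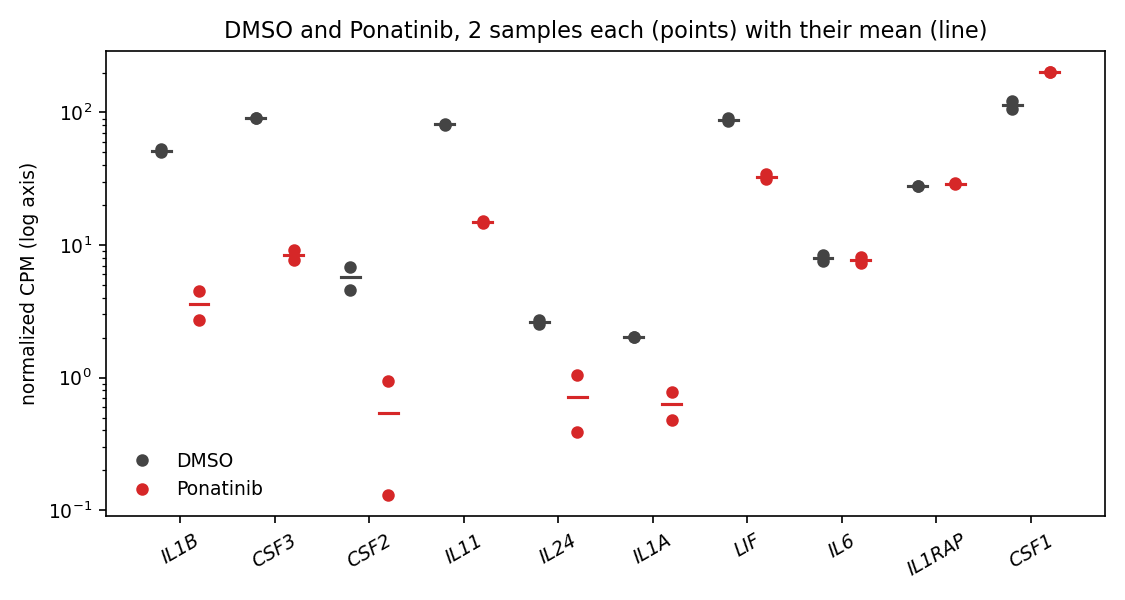
Normalized CPM (log axis) of the 10 members in the 2 DMSO samples (grey) and 2 Ponatinib samples (red), with the mean of each pair as a line, ordered from the largest fall to the rise. IL1B went from 51.6 to 3.60 on average and CSF1 from 114 to 202, while the points of IL6 overlap.

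Among the IL-1 ligands, IL1B, a main inflammatory cytokine, had 50.4 and 52.9 normalized CPM with DMSO and 4.47 and 2.73 with Ponatinib. Both Ponatinib samples were far below both DMSO samples. The means were 51.6 ± 1.77 and 3.60 ± 1.23 (SD, n = 2 each), a 13.8-fold fall (log2 fold change -3.79, standard error 0.15, edgeR adjusted p = 1.1e-10), which ranked 3 among all falls. IL1A, its sister ligand, which is active inside and outside the cell, was far lower, at 2.04 and 2.03 CPM with DMSO and 0.475 and 0.781 with Ponatinib. It fell by 1.73 on the log2 scale (standard error 0.42, edgeR adjusted p = 0.0055). This rested on 43 counts in the DMSO pair and 11 in the Ponatinib pair, a ratio of 0.298 (95% exact interval 0.138 to 0.587, for counting error only). Without Ponatinib replicate 1 the log2 fold change was -1.35 and did not pass (edgeR adjusted p = 0.064). IL1RAP, the receptor chain that both ligands need, was at 28.1 and 27.7 CPM with DMSO and 28.8 and 29.4 with Ponatinib. The Ponatinib samples were slightly above, but the log2 fold change of 0.059 (95% interval -0.15 to 0.27) did not pass (edgeR adjusted p = 0.69).

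The 3 members of the gp130 family differed from one another. IL11, which acts on bone, stroma and platelet precursors, had 80.1 and 82.2 CPM with DMSO and 15.2 and 14.7 with Ponatinib. With means of 81.2 ± 1.51 and 15.0 ± 0.36 (SD, n = 2 each), it fell by 2.44 on the log2 scale (standard error 0.091, edgeR adjusted p = 5.8e-11). LIF, a factor that maintains stem cells and acts on many tissues, had 85.7 and 90.4 CPM with DMSO and 31.3 and 34.1 with Ponatinib. It fell 2.70-fold (log2 fold change -1.43, standard error 0.081, edgeR adjusted p = 5.0e-09). IL6, the best known member of the family, had 7.52 and 8.41 CPM with DMSO and 8.18 and 7.29 with Ponatinib. The samples of the 2 groups were interleaved, and the log2 fold change was -0.029 (95% interval -0.40 to 0.34, edgeR adjusted p = 0.92). The interval of IL6 thus held neither a 2-fold fall nor a 2-fold rise, whereas those of IL11 (-2.63 to -2.24) and LIF (-1.61 to -1.26) lay wholly past a 2-fold fall.

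The 3 colony stimulating factors moved in both directions. CSF3, which drives the output of neutrophils, had 91.4 and 90.5 CPM with DMSO and 7.70 and 9.24 with Ponatinib. It had the lowest p of the members, with a 10.9-fold fall (log2 fold change -3.44, standard error 0.10, edgeR adjusted p = 9.6e-12). CSF2, a growth factor of granulocytes and macrophages, had 4.60 and 6.89 CPM with DMSO and 0.951 and 0.130 with Ponatinib, from 52, 68, 10 and 1 counts. Its Ponatinib samples were both below the DMSO samples but differed from each other. The log2 fold change was -3.21 (standard error 0.44, edgeR adjusted p = 5.1e-05), and the ratio of the summed counts was 0.107 (95% exact interval 0.0518 to 0.198, counting error only). The size rests on 1 sample, at -5.30 without Ponatinib replicate 1 and -2.57 without Ponatinib replicate 2. CSF1, the main survival factor of macrophages, was the member that rose. It had 107 and 122 CPM with DMSO and 201.8 and 202 with Ponatinib, with means of 114 ± 10.6 and 202 ± 0.29 (SD, n = 2 each). Both Ponatinib samples were above both DMSO samples, 1.77-fold higher on average (log2 fold change 0.83, standard error 0.071, edgeR adjusted p = 4.7e-07).

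IL24, a cytokine of the IL-10 family studied for its effects on tumor cell growth, had 2.74 and 2.53 CPM with DMSO and 1.05 and 0.390 with Ponatinib. It fell by 1.77 on the log2 scale (standard error 0.40, edgeR adjusted p = 0.0036), from 56 summed counts to 14, a ratio of 0.291 (95% exact interval 0.149 to 0.529, counting error only). The log2 fold change was -2.71 without Ponatinib replicate 1 and -1.33 without Ponatinib replicate 2. IL24 shares 823 bases of exon with FCMR on the opposite strand, which had 18 to 31 counts in the 8 samples. The strand setting of the counting is not given in the sources used here, so reads of the pair may not be told apart. IL6 overlaps IL6-AS1 (0 to 5 counts) and STEAP1B (6 to 23 counts), and LIF overlaps LIF-AS1 (0 to 8 counts) and LIF-AS2 (2 to 24 counts).

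Per length of the canonical GENCODE transcript, the order of the levels changed with treatment. With DMSO, CSF3 was highest at 60.8 and 60.2 normalized CPM per kb, and IL11 (33.7 and 34.6) and IL1B (33.4 and 35.1) followed without differing beyond their spread. CSF1 (26.7 and 30.4) and LIF (22.1 and 23.4) came next. IL6 (6.68 and 7.46), CSF2 (5.84 and 8.74) and IL1RAP (5.91 and 5.85) overlapped, except that IL1RAP lay below IL6. IL24 (1.39 and 1.28) and IL1A (1.01 and 1.00) were lowest. With Ponatinib, CSF1 led at 50.5 and 50.6 CPM per kb, and no other member was above 8.81. With merged exons of all transcripts as the length, CSF3 stayed first with DMSO and CSF1 with Ponatinib, while IL1B went from rank 3 to rank 5 in DMSO replicate 1. The 10 members summed to 459 and 485 normalized CPM with DMSO and to 300.0 and 301 with Ponatinib, of which CSF1 was 201.8 and 202.

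The knockdowns asked whether loss of ABL1 or ABL2, the named targets of Ponatinib, changes the same genes. ABL1 was at 190 normalized CPM in the scrambled shRNA sample, 72.8 under the ABL1 hairpin, 203 under the ABL2 hairpin and 109 under both. ABL2 was at 236, 213, 93.5 and 148 in the same order. Each targeted gene was lowest in the sample titled for its hairpin. Inside the files of scrambled shRNA and ABL1 shRNA the header cells carry swapped names, and their titles were followed here. In the double knockdown each gene was higher than under its single hairpin, with ratios to scrambled shRNA of 0.576 for ABL1 and 0.625 for ABL2 against 0.384 and 0.396. Each condition is 1 sample, so the differences have no replicate check. They are given here as values without a test, and a fit that borrows the spread of the DMSO and Ponatinib pairs is among the alternatives. The ratio to scrambled shRNA is given with an exact 95% interval of the 2 counts, which covers counting error only.

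Over 2-fold from scrambled shRNA (with at least 10 counts in the higher sample) were 1 member with ABL1 shRNA (IL11, higher), 1 with ABL2 shRNA (IL6, lower) and 2 with ABL1/ABL2 shRNA (IL11 higher and IL6 lower). Of all genes considered, 4.87% were over 2-fold higher and 4.02% lower with ABL1 shRNA, 4.65% and 3.07% with ABL2 shRNA, and 4.47% and 3.27% with both. With 10 members, 1 gene makes 10% of them, so each of these shares rests on 1 gene. Just inside the threshold were IL6 with ABL1 shRNA (ratio 0.50) and CSF3 and IL24 with ABL2 shRNA (1.98 and 1.97). The median log2 ratio of the members was 0.48 with ABL1 shRNA, 0.43 with ABL2 shRNA and -0.19 for both hairpins, and that of all genes was 0.0059, -0.0047 and 0.00021.

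**Figure D2:**
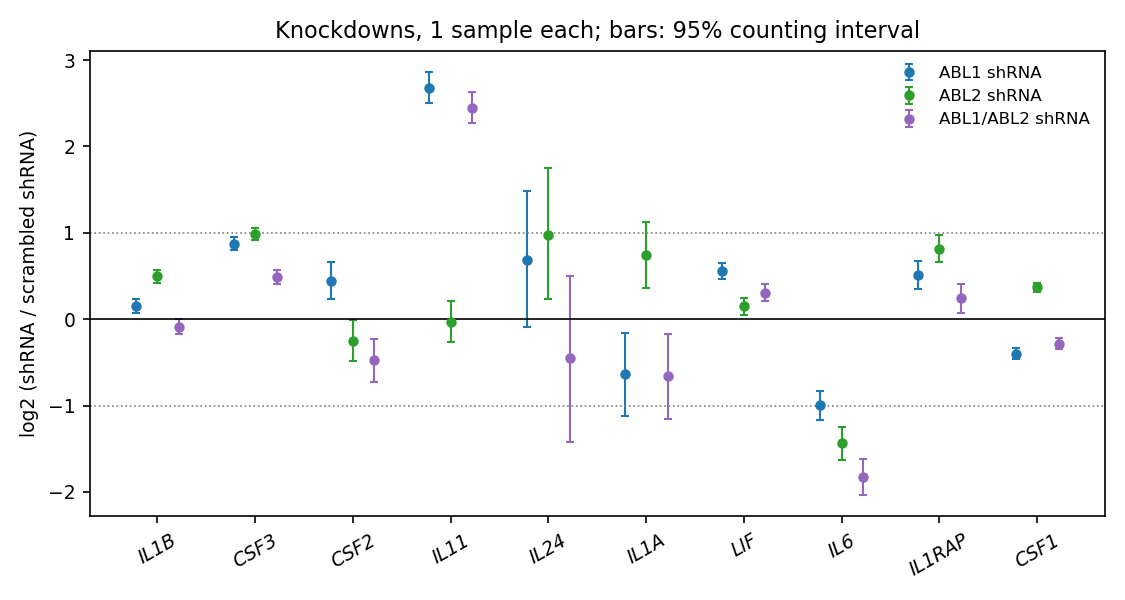
Log2 ratio of each shRNA sample to the scrambled shRNA sample for the 10 members (1 sample each), with 95% exact counting intervals and dotted lines at 2-fold. IL11 sits at 2.68 and 2.45 in the samples with the ABL1 hairpin and at -0.03 with ABL2 shRNA, and IL6 is below scrambled shRNA in all 3.

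IL11 was high in both samples with the ABL1 hairpin. It had 25.3 CPM with scrambled shRNA, 162 under the ABL1 hairpin, 24.8 under the ABL2 hairpin and 138 under both. The ratios were 6.41 (5.67 to 7.28), 0.980 (0.832 to 1.15) and 5.45 (4.81 to 6.20). The ABL2 shRNA sample was within counting error of the control. IL6 was highest with scrambled shRNA at 70.7 CPM, against 35.4, 26.1 and 20.0 CPM under the ABL1, ABL2 and combined hairpins. The ratios of 0.50 (0.445 to 0.562), 0.370 (0.324 to 0.421) and 0.282 (0.244 to 0.326) all lay below 1.

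CSF3 was above scrambled shRNA in the 3 knockdowns, at 338, 366 and 259 CPM against 185. Its ratios were 1.83 (1.74 to 1.93), 1.98 (1.88 to 2.09) and 1.40 (1.33 to 1.48) in that order. IL1RAP (44.4 CPM with scrambled shRNA) and LIF (130 CPM) were also above it in all 3, with ratios of 1.18 to 1.76 for IL1RAP and 1.11 to 1.47 for LIF. For these genes and IL6 the 3 ratios share 1 control sample, so a change shared by the knockdowns and a difference of the scrambled shRNA sample cannot be told apart. That sample was over 2-fold from all 3 others in 439 of 16329 genes, against 182, 241 and 108 for the ABL1, ABL2 and ABL1/ABL2 shRNA samples. No member was among the 439, but IL6 missed the rule narrowly. Its level with scrambled shRNA was 1.999, 2.71 and 3.54 times that under the ABL1, ABL2 and combined hairpins.

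The other members went different ways. IL1A was at 7.91 CPM with scrambled shRNA, 5.09 under the ABL1 hairpin, 13.2 under the ABL2 hairpin and 5.01 under both. CSF1, at 399.6, 303, 515 and 328 CPM in the same order, was likewise below the control in both samples with the ABL1 hairpin and above it with ABL2 shRNA alone. IL1B was at 189.8, 212, 268 and 178 CPM, with its highest ratio at 1.41 (1.34 to 1.49) in ABL2 shRNA. CSF2 was at 27.0, 36.8, 22.7 and 19.4 CPM, above the control with ABL1 shRNA alone. IL24 had 23, 42, 50 and 18 counts, and its interval held 1 with ABL1 shRNA and with both.

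Side by side, the 7 members that fell after Ponatinib treatment did not share a direction in the double knockdown. IL11, CSF3 and LIF were above scrambled shRNA there, by log2 ratios of 2.45, 0.49 and 0.31. IL1B (-0.09), CSF2 (-0.48), IL1A (-0.66) and IL24 (-0.45, with an interval that held 0) were below it. IL6 did not pass the Ponatinib test and was the lowest member in the double knockdown (-1.82). CSF1 rose with Ponatinib (0.83) and was below scrambled shRNA with both hairpins (-0.28). ABL2 mRNA itself fell after Ponatinib treatment, from 321 to 158 CPM (log2 fold change -1.02, edgeR adjusted p = 8.6e-08). ABL1 mRNA rose slightly (0.19, edgeR adjusted p = 0.029). Ponatinib treatment and knockdown are separate experiments with different controls, and the difference between their effects was not tested.

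**Figure D3:**
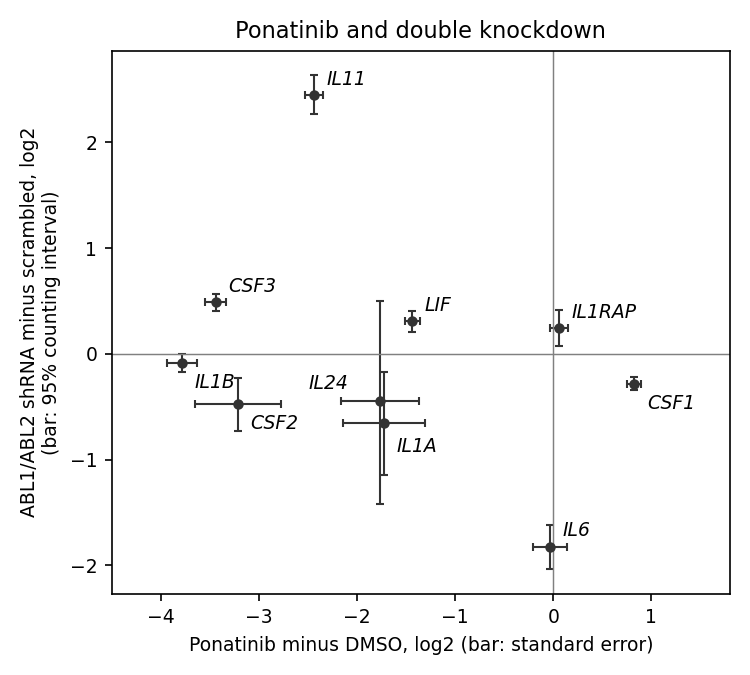
Log2 fold change after Ponatinib treatment (horizontal, 2 samples per group, bars are standard errors) against the log2 ratio of ABL1/ABL2 shRNA to scrambled shRNA (vertical, 1 sample each, bars are 95% counting intervals) for the 10 members. IL11 lies at -2.44 and 2.45 and IL6 at -0.03 and -1.82.

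Other genes of these pathways were read from 7 lists. For comparison, 15.7% of all genes tested fell with Ponatinib and 15.0% rose. Between 3.07% and 4.87% of all genes considered were over 2-fold from scrambled shRNA in each direction and knockdown. Of 22 IL-1 pathway genes, 16 were tested after Ponatinib treatment, of which 3 fell, 1 rose and 12 did not pass (median log2 fold change 0.04). The kinases IRAK1 (-0.32, edgeR adjusted p = 0.00076) and IRAK2 (-0.40, adjusted p = 0.0092) and the adaptor TAB1 (-0.33, adjusted p = 0.045) fell, and the adaptor TAB2 rose (0.25, adjusted p = 0.0068). MYD88, the adaptor of the IL-1 receptor, was at -0.18 and did not pass (adjusted p = 0.22). IL1R1, the receptor chain that binds the ligands, had 3.49 CPM with DMSO and 3.05 with Ponatinib (adjusted p = 0.62). In the knockdowns 1 or 2 of 16 genes were over 2-fold from scrambled shRNA. SIGIRR, a receptor that dampens IL-1 signaling, was higher in each (log2 ratios 1.23, 1.02 and 1.38). IL1R1 was lower with ABL1 shRNA (-1.01). SIGIRR had 10.0 CPM with scrambled shRNA and 23.5, 20.3 and 26.1 in the knockdowns. Its 3 ratios share 1 control sample, so a shared change and a difference of the control cannot be told apart.

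Of 18 genes for receptors and signaling of the IL-6 family, 15 were tested, of which 4 fell, 5 rose and 6 did not pass (median -0.0038). LIFR, the LIF receptor, rose from 58.7 to 117 CPM (log2 fold change 0.99, edgeR adjusted p = 5.3e-07) while its ligand fell. SOCS3, the feedback inhibitor that STAT3 induces (-0.72, adjusted p = 3.2e-06), the gp130 ligand CLCF1 (-0.78, adjusted p = 1.6e-05) and the oncostatin M receptor OSMR (-0.42, adjusted p = 0.00018) fell, and PIAS3, an inhibitor of STAT3, rose (0.34, adjusted p = 0.0073). The shared chain IL6ST was at 263 and 258 CPM and did not pass (adjusted p = 0.75). Only IL6R was over 2-fold from scrambled shRNA in a knockdown, at -1.10 with both hairpins.

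Of 12 genes for CSF receptors and related growth factors, 5 were tested and 2 rose. They were KITLG, the stem cell factor (0.92, edgeR adjusted p = 1.8e-05), and STAT5A (0.41, adjusted p = 0.016). CSF1R, the receptor of CSF1, was at 0.993 CPM with DMSO and 1.11 with Ponatinib and did not pass (adjusted p = 0.84). Of 11 genes of the IL-10 family and its receptors, 3 were tested and IL20RB, a receptor chain used by IL-24, rose from 0.658 to 1.86 CPM (1.48, adjusted p = 0.011). Of 24 other interleukins, 3 had enough reads to be tested. IL12A fell from 2.26 to 0.866 CPM (-1.36, adjusted p = 0.011) and IL15 rose (0.78, adjusted p = 0.0040). Levels of IL20RB and IL12A this low rest on few reads. Over 2-fold from scrambled shRNA were CSF1R with ABL1 shRNA (-1.27) and IL20RA (1.30) and IL12A (1.05) with ABL2 shRNA. With both hairpins IL22RA1 was higher (2.36, at 0.904 CPM). IL32 was lower in all 3 knockdowns, at 2.62, 3.34 and 2.63 CPM against 11.0 in the 1 control sample they share.

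Of the 14 NF-kB and AP-1 subunits and feedback genes, 7 fell, 3 rose and 4 did not pass (median -0.34). JUN (-2.18) and FOSL1 (-2.35), both subunits of AP-1, fell (edgeR adjusted p = 1.4e-11 each). FOSL2 (0.65, adjusted p = 1.0e-06) and JUND (0.73, adjusted p = 2.0e-06) rose, and so did the NF-kB inhibitor NFKBIA (0.68, adjusted p = 3.6e-06). The NF-kB subunits NFKB1 (-0.67, adjusted p = 1.2e-05), RELA (-0.29, adjusted p = 0.0039) and NFKB2 (-0.28, adjusted p = 0.0098) fell, while RELB and REL did not pass. JUNB (-0.55, adjusted p = 0.0023) and FOS (-2.75, adjusted p = 4.8e-05) also fell, FOS from 4.54 to 0.711 CPM. In the knockdowns JUND was over 2-fold lower than scrambled shRNA with ABL1 shRNA (-1.30). With both hairpins FOS was over 2-fold higher (1.08) and the feedback gene TNFAIP3 lower (-1.15). Of 10 genes for mRNA-binding proteins, 5 fell, 1 rose and 4 did not pass (median -0.18). None was over 2-fold from scrambled shRNA in a knockdown. Most of these proteins bind AU-rich elements, sequences that set the decay of many cytokine mRNAs. ZFP36L1, which speeds decay, fell by 1.09 on the log2 scale (adjusted p = 1.2e-08) and HNRNPD by 0.34 (adjusted p = 0.00061), ELAVL1, which stabilizes such mRNAs, was at -0.22 (adjusted p = 0.015) and KHSRP at -0.20 (adjusted p = 0.022), while TIA1 rose (0.75, adjusted p = 3.7e-06).

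**Figure D4:**
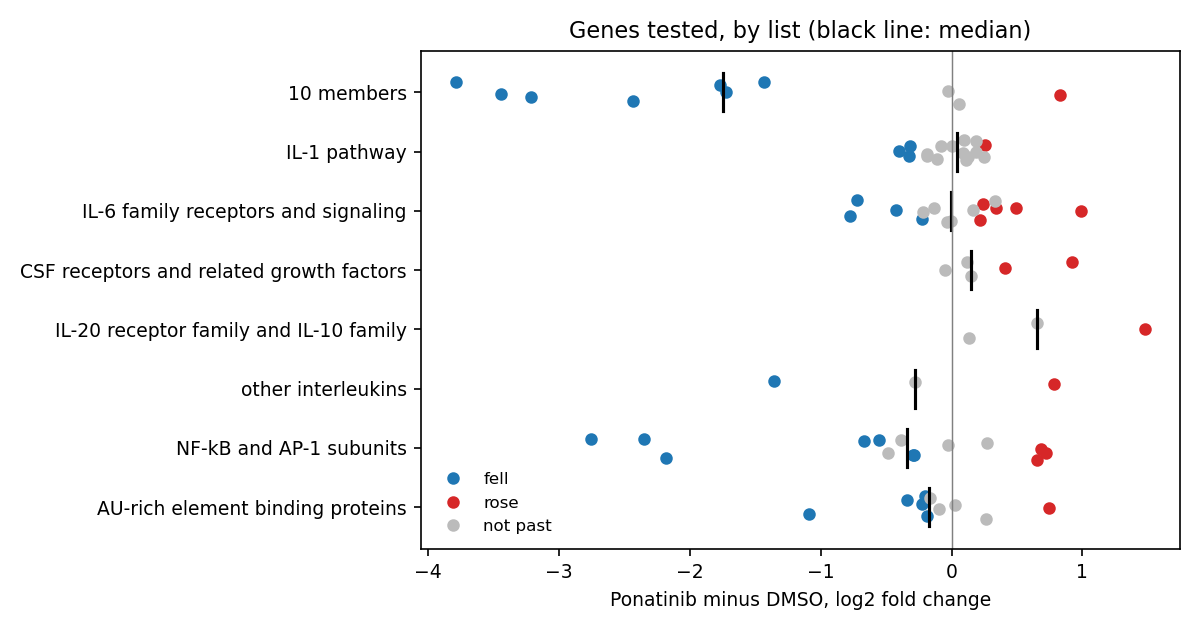
Log2 fold change after Ponatinib treatment of the tested genes of each list, 1 point per gene (blue fell, red rose, grey did not pass), with the median as a black line. The members' median of -1.75 lies to the left of the medians of the 7 lists, which run from -0.34 to 0.65. Members and lists were chosen with earlier results of these data known, so this contrast is a description.

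The 5 genes whose pattern was most like that of CSF3 over the 8 samples, after subtracting the mean of each set of 4, were MCL1 (Pearson's r = 0.995), KLHL42 (0.994), DUSP5 (0.994), DUSP6 (0.993) and LCMT2 (0.992) of 15736 genes compared. MCL1 blocks apoptosis and DUSP5 and DUSP6 are phosphatases of ERK. The 8 points share their libraries and the step between DMSO and Ponatinib, and the values are a description.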

How the data were processed

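LM2 RNA was sequenced by the authors (NEBNext Ultra libraries, Illumina HiSeq), mapped to hg38 with Bowtie/TopHat and counted per gene. The submitters' processing notes name HTSeq 0.6.0. The deposited values are raw read counts, 1 file per sample. Annotation release and strand setting are not given in the sources used here. Summary rows of the counter, 15.7% to 16.0% of the reads in the 4 shRNA files, were left out. Symbols came from GENCODE v44, which matched 54836 of 58688 identifiers.

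Ponatinib was tested against DMSO by the quasi-likelihood test of edgeR 4.0.16 (R 4.3.3, TMM, filterByExpr, prior count 0.125, Benjamini-Hochberg adjustment over all genes tested). An exact permutation of 2 against 2 samples cannot give a p under 0.333, so none was used. Knockdowns have 1 sample each and were given as ratios with exact binomial intervals. The thresholds for all calls stand beside them. The script was tested on simulated data.

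The named genes are the 10 members, ABL1, ABL2, up to 5 genes per list by adjusted p, and the 5 genes most like the member with the lowest p. MYD88, IL1R1, SIGIRR, IL6ST, IL6R, CSF1R, NFKB1, RELA, NFKB2, RELB, REL, JUNB and FOS were named after their values were seen. So were IL20RA, IL22RA1, IL32 and TNFAIP3. The members and lists were chosen with earlier results of these data known. Repeats differed by more than sampling noise (chi-square over its degrees of freedom 1.44 for DMSO and 3.12 for Ponatinib). Alternatives were DESeq2's size factors, library totals, other filters, DESeq2 1.42.0, the replicate block, the study's thresholds, each sample left out and a fit of all 8 samples.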

Additional observations from a re-analysis of the deposited data

How the results depend on the processing

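Across all genes 4917 changed with Ponatinib, against 2576 with DESeq2's Wald test, 878 by the study's cutoffs, and 2800 to 5744 with 1 sample left out. Of the 10 members, 8 changed with the replicate block (4984 genes in all), the other size factors, library totals and no filter, and 7 to 8 with 1 sample left out (6 to 7 that fell), where the lone sample is assumed to vary like the other group. Requiring 10 counts in every sample removed IL1A, CSF2 and IL24 and left 5 (4 fell), with 4769 genes changed in all. DESeq2 gave 6, without an adjusted p for IL1A and IL24. By the study's cutoffs 0 members rose, since CSF1 changed less than 2-fold. IL6, near 0, changed sign to 0.016 with library totals, 0.049 without DMSO replicate 2 and 0.040 without Ponatinib replicate 2 (range with 1 sample left out -0.11 to 0.049). The differences between repeat 1 and repeat 2 were not shared by DMSO and Ponatinib (r = 0.02 across 16031 genes, 2 pairs only). Whether the repeats were run as pairs is not given in the sources used here. Members past the threshold in the knockdowns rose to 5 each for ABL1 and ABL2 shRNA at 1.5-fold, which 23.8% and 19.8% of all genes passed, and to 3 for ABL2 shRNA with library totals (IL6, CSF3 and IL24), where 7.98% of all genes passed 2-fold. An edgeR fit of all 8 samples, which assumes that shRNA samples vary like the DMSO and Ponatinib pairs, gave 6, 6 and 5 members (ABL1, ABL2, both) with an adjusted p under 0.05, against 4015, 2845 and 3261 of all 18275 genes tested. IL1A, CSF2 and IL24 are limited by depth, with 1 to 11 counts per Ponatinib sample. The counting intervals of these 3 and the merged-exon lengths were chosen after seeing the data.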
